A study of Sus scrofa with 20 samples.

Results

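Marker genes of mast cells were followed in caecal mucosa of pigs that diverged in feed efficiency. Of 8 genes chosen because mast cells use them (FCER1A, MS4A2, CPA3, CMA1, KIT, HDC, HPGDS and GATA2), 5 had a probeset, a group of array probes for a single transcript, with values. These were FCER1A, KIT, HDC, HPGDS and GATA2, with 8 of the 25092 probesets among them, whereas 10567 gene symbols were covered in all. MS4A2, CPA3 and CMA1 had no named probeset with values and were not analysed here, nor was the tryptase gene TPSAB1. For each gene the probeset with the highest mean over the 20 pigs was used, and the other probesets of KIT and HDC were set beside it.

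The samples were mucosa scraped from the tip of the caecum of 20 Large White x Landrace pigs, each read on its own array. Each of 5 litters, named by the sows 1406, 1410, 1411, 1417 and 1435, gave 4 pigs, so that both sexes were present once in each efficiency group. Pigs of the high group had a low residual feed intake, that is, they ate less than growth and body composition predicted, and were the most divergent animals of their litter and sex. All were growing and finishing pigs on free access to feed, penned by litter, so that sow stands for litter and pen alike. No pig received a treatment, and no untreated control exists apart from the opposite efficiency group. The upper quartile of an array's log2 values was 6.25 to 6.30, and the number of arrays limits the precision.

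Mast cells are long-lived tissue cells of the innate immune system that are frequent in the gut mucosa. They bind immunoglobulin E through the high-affinity Fc receptor, whose alpha chain is encoded by FCER1A and whose beta chain by MS4A2, and they depend on the stem cell factor receptor KIT for survival. On activation they release stored granules with histamine, made by the histidine decarboxylase HDC, and with the proteases CPA3, chymase (CMA1) and tryptase, and they form prostaglandin D2 through the synthase HPGDS. GATA2 is a transcription factor that the mast cell lineage requires. None of the 5 measured genes belongs to mast cells alone. KIT also marks the interstitial cells of Cajal, GATA2 the endothelium, HDC some enteroendocrine cells, HPGDS tuft cells and some macrophages, and in humans FCER1A also marks dendritic cells. Because the granule proteases and the beta chain were not analysed, the name mast cell could be checked only against these 5 genes. In bulk mucosa, fewer cells of a type and less RNA per cell cannot be told apart.

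The first question was whether littermates of high and low feed efficiency differed in the markers. FCER1A and HDC had higher means in high feed efficiency, and KIT, HPGDS and GATA2 had nearly equal means in both groups. None of the 5 genes passed the limma test with Benjamini-Hochberg adjustment, and neither did any other probeset, since 0.00% of the 23140 probesets tested had an adjusted p under 0.05. At an unadjusted p under 0.05, 2 of the 5 genes passed, against 4.48% of all probesets tested. The median log2 difference of the 5 genes was -0.02, beside 0.0035 over all probesets tested.

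FCER1A lies on chromosome 4 from 91118867 to 91125448 (Sscrofa11.1, the assembly of all positions here). In high feed efficiency its lowest, median and highest log2 values were 1.84, 2.71 and 3.57, and in low feed efficiency they were 1.38, 2.26 and 2.81. The groups overlapped, since the high-efficiency male of sow 1411 at 1.84 lay below 9 of the 10 low-efficiency pigs. The means were 2.75 ± 0.46 (SD, n = 10) and 2.24 ± 0.43 (SD, n = 10), a log2 difference of 0.51 ± 0.19 (SE) with a 95% interval from 0.12 to 0.90. The unadjusted p was 0.0130 and the limma adjusted p was 0.980, so the difference did not pass. Of the 10 pairs of 1 litter and sex, 8 had more FCER1A in the high-efficiency pig, all 5 pairs of females and 3 of the 5 pairs of males.

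The pair differences of FCER1A were uneven, from -0.27 to 1.80 with a median of 0.32. The males of sow 1410 were at 3.18 and 1.38, and the females of sow 1435 were at 3.57 and 1.86. These pairs hold the 2 highest values of the high and the 2 lowest values of the low group. Without the litter of sow 1435 the log2 difference was 0.36 (unadjusted p = 0.0820, limma adjusted p = 0.613), and without that of sow 1410 it was 0.38. The FCER1A probeset was dim, with a mean of 2.49 at the 10.9th percentile of named genes. Summarised values of dim probesets tend to understate a difference. How much of the signal came from the FCER1A transcript was not tested.

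Of the macrophage and dendritic cell list, of which CD14, CD163, C1QA and TYROBP were among the measured genes and which shares no gene with the markers, 8 of 8 tested genes were above 0 in high feed efficiency. None of these 8 passed, 4 had an unadjusted p under 0.05, beside 4.48% of all probesets, and their median log2 difference was 0.19. All tested genes were above 0 also in the lists of fibroblasts (6 of 6), plasma cells (5 of 5) and erythroid cells and platelets (4 of 4). In the colonocyte list the direction was opposite, with 0 of 4 tested genes above 0 and a median log2 difference of -0.15. The level of the macrophage and dendritic cell list was the mean over its genes of the log2 value less each gene's own mean. It ranged from -0.12 to 0.42 in the high and from -0.44 to 0.22 in the low group, and the dimmest gene averaged 4.87. How much of the FCER1A difference goes with that list was not tested.

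HDC, the enzyme that makes histamine, lies on chromosome 1 from 121505677 to 121525416. Its lowest, median and highest log2 values were 3.90, 4.10 and 4.52 in high and 3.61, 4.02 and 4.29 in low feed efficiency. The ranges overlapped broadly, and the 2 lowest values, 3.61 and 3.63, were those of the low-efficiency females of sows 1435 and 1417. The means were 4.14 ± 0.21 (SD, n = 10) and 3.95 ± 0.23 (SD, n = 10), a log2 difference of 0.19 ± 0.08 (SE) with a 95% interval from 0.02 to 0.36. This did not pass (unadjusted p = 0.0294, limma adjusted p = 0.980). The high-efficiency pig had the higher HDC value in 9 of 10 pairs, and in the 10th pair, the females of sow 1410, both pigs were at 3.90.

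The dimmer probeset of HDC did not share this pattern. Its means were 2.59 ± 0.23 (SD, n = 10) in high and 2.65 ± 0.46 (SD, n = 10) in low feed efficiency, and it was higher in 5 of 10 pairs (log2 difference -0.05, limma adjusted p = 0.987). Across the 20 pigs the HDC probesets had a Pearson r of 0.264 (permutation p = 0.263, adjusted p = 0.263 over 4 pairs of probesets), with Spearman's rho at 0.373 (permutation p = 0.106, adjusted p = 0.106), and r was 0.296 without the 2 pigs farthest from the median. The HDC result therefore holds for the brighter probeset alone.

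**Figure D1:**
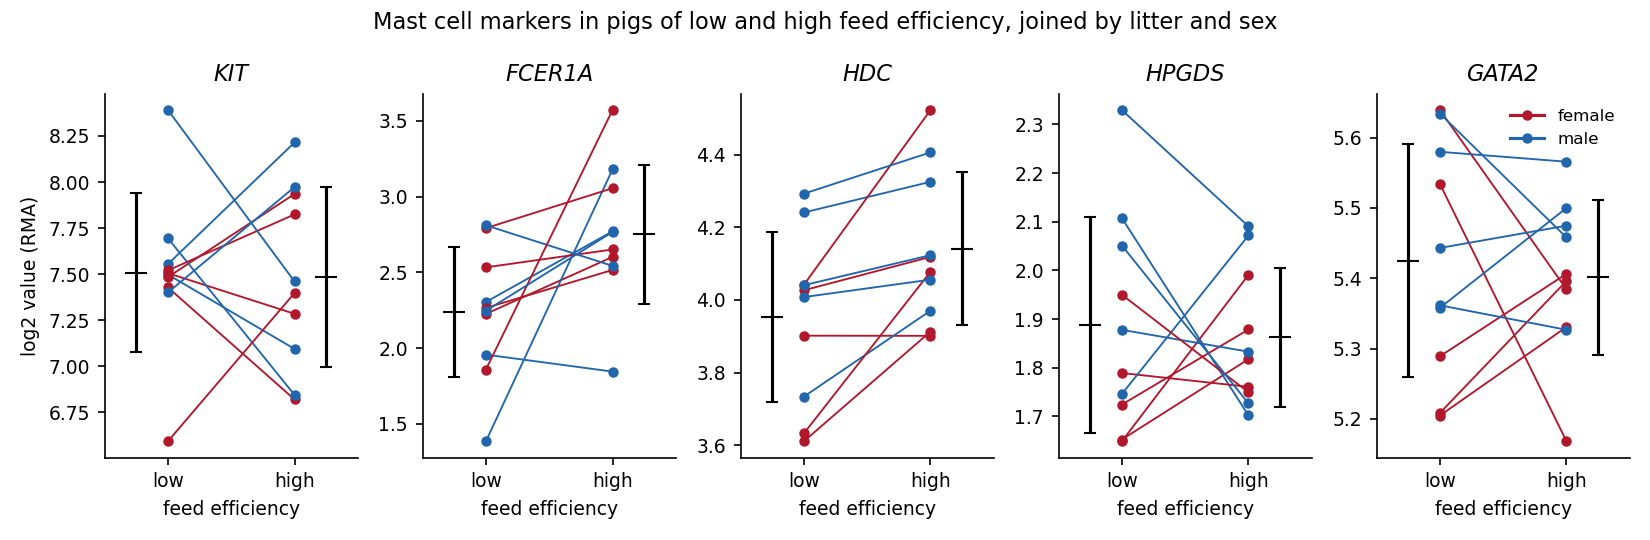
Log2 values of the 5 marker genes in pigs of low (left) and high (right) feed efficiency, with a line joining the pigs of the same litter and sex (red, females; blue, males) and the mean ± SD of 10 pigs at the sides. The high-efficiency pig is the higher one in 8 of 10 pairs for FCER1A and in 9 for HDC, whereas the lines of KIT, HPGDS and GATA2 go both ways, and each gene has its own axis.

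KIT, the receptor of the stem cell factor, lies on chromosome 8 from 41402334 to 41492306. Its lowest, median and highest log2 values were 6.82, 7.43 and 8.21 in high and 6.59, 7.50 and 8.39 in low feed efficiency. The groups lay on top of each other, and both extremes belonged to low-efficiency pigs, the female of sow 1435 and the male of sow 1417. The log2 difference was -0.02 ± 0.20 (SE), with a 95% interval from -0.44 to 0.40 (limma adjusted p = 0.999), and 5 of 10 pairs had the higher KIT value in the high-efficiency pig. The mean pair difference was -0.19 in males and 0.15 in females, and the interaction with sex did not pass (-0.34 ± 0.40 SE, limma adjusted p = 0.999). The other probesets of KIT had log2 differences of 0.01 and 0.04.

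HPGDS, the synthase of prostaglandin D2, lies on chromosome 8 from 125375906 to 125406066. Its values were 1.70, 1.83 and 2.09 (lowest, median and highest) in high and 1.65, 1.83 and 2.33 in low feed efficiency. They lay close to the filter bound of 1.62, below which probesets were removed, and the low-efficiency male of sow 1410 had the highest value. The log2 difference was -0.03 ± 0.09 (SE), with a 95% interval from -0.22 to 0.17 (limma adjusted p = 0.992), and HPGDS was higher in 4 of 10 pairs.

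GATA2, the transcription factor, lies on chromosome 13 from 71981139 to 71997626. Its SD over the 20 pigs was 0.14, and its values were 5.17, 5.40 and 5.57 in high and 5.20, 5.40 and 5.64 in low feed efficiency. The medians were equal and the ranges nearly so. The log2 difference was -0.02 ± 0.08 (SE), with a 95% interval from -0.19 to 0.14 (limma adjusted p = 0.991), and 5 of 10 pairs were higher in high feed efficiency. The intervals therefore leave room for differences of up to 0.44 for KIT and 0.22 for HPGDS on the log2 scale, while for GATA2 they end at 0.19.

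**Figure D2:**
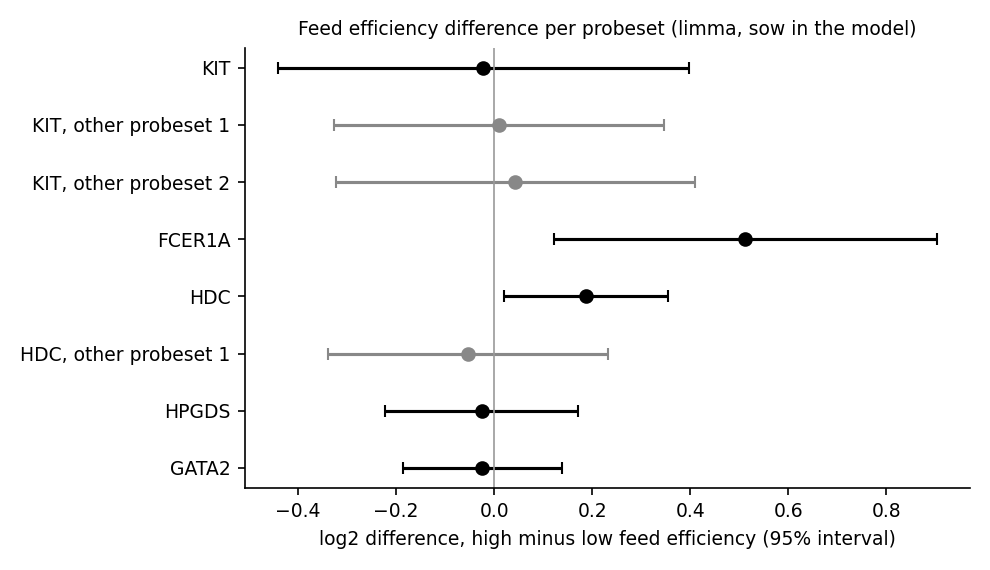
Log2 difference between high and low feed efficiency (points) with its 95% interval (bars) for each probeset of the 5 genes, from limma with sow in the model; black, the probeset with the highest mean per gene, grey, the others. The intervals of FCER1A and of the brighter HDC probeset lie above 0 before adjustment, and those of the other 6 probesets include 0.

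Males and females of the same litters were compared with feed efficiency in the model. No marker passed, as no probeset did (0.00% of 23837 tested), and at an unadjusted p under 0.05, which 4.29% of all probesets reached, 0 of the 5 genes did. The mean of HDC was 4.12 (SD 0.20) over the 10 males, against 3.97 (SD 0.26) over the 10 females (male minus female 0.14 ± 0.07 SE, unadjusted p = 0.0619, limma adjusted p = 0.9999). HPGDS differed by 0.16, KIT by 0.23, GATA2 by 0.11 and FCER1A by -0.23, male minus female. The dimmer probeset of HDC averaged 2.80 (SD 0.36) in males against 2.45 (SD 0.26) in females and had an unadjusted p of 0.00652 (limma adjusted p = 0.9999). The ranges of males and females overlapped for every gene. No marker passed for the interaction between sex and efficiency group, with limma adjusted p-values of 0.999.

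The second question was whether the markers differed between litters. More probesets passed for litter than for feed efficiency, with 0.126% of 23837 probesets past an adjusted p under 0.05 and 16.1% past an unadjusted p under 0.05. None of the 5 markers passed the adjustment, and 1 of 5, HDC, had an unadjusted p under 0.05. Litter accounted for 54.1% of the variance of HDC over the 20 pigs, and for 14.5% in KIT, 15.8% in FCER1A, 14.4% in HPGDS and 21.6% in GATA2, where the median over all probesets was 26.9%. With 4 littermates per sow, part of such a share arises from the spread between littermates.

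HDC was highest in the litter of sow 1411, where the high-efficiency female and male were at 4.52 and 4.41 and the low-efficiency female and male at 4.04 and 4.29. The litter of sow 1406 followed, at 4.12, 4.33, 4.03 and 4.24 in the same order. All 8 pigs of these litters lay above all 4 pigs of sow 1410, which were at 3.90, 3.97, 3.90 and 3.73. The litter of sow 1435 was at 3.91, 4.12, 3.61 and 4.04, and that of sow 1417 at 4.08, 4.06, 3.63 and 4.01. The litters of sows 1435 and 1417 overlapped with each of the other litters. The litter means ran from 3.88 ± 0.10 (sow 1410) through 3.92 ± 0.22 (1435), 3.94 ± 0.21 (1417) and 4.18 ± 0.13 (1406) to 4.32 ± 0.21 (1411, SD, n = 4 each). Of the neighbours in this order, the litters of sows 1417 and 1406 were apart by 0.23, more than the SD within litters of 0.18, and the other neighbours were apart by 0.02 to 0.14.

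The moderated F of HDC for litter was 5.54 (unadjusted p = 0.00531, limma adjusted p = 0.171), and 3.10% of all probesets had a p as small. Without the litter of sow 1411 the unadjusted p was 0.0937. The dimmer HDC probeset had an unadjusted p of 0.0189 (limma adjusted p = 0.242) with a different order, since the litters of sows 1406 and 1417 were highest, at 2.91 and 2.87, and that of sow 1435 was lowest, at 2.40. The litter order of HDC was thus not shared by its probesets.

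The other 4 genes did not pass the test for litter, also without adjustment. FCER1A ran from 2.25 ± 0.40 in the litter of sow 1411 to 2.80 ± 0.21 in that of sow 1417 (limma adjusted p = 0.631), and its SD within a litter reached 0.74 in the litters of sows 1410 and 1435. KIT ran from 7.34 ± 0.57 in the litter of sow 1435 to 7.80 ± 0.43 in that of sow 1417 (limma adjusted p = 0.772). The litter of sow 1417 had the highest mean for both receptors, FCER1A and KIT, yet none of the steps between neighbouring litters exceeded the SD within litters, 0.52 for FCER1A and 0.47 for KIT. HPGDS was lowest at 1.82 ± 0.20 for sow 1406 and highest at 2.01 ± 0.26 for sow 1410 (limma adjusted p = 0.815). GATA2 was lowest at 5.35 ± 0.05 for sow 1435 and highest at 5.53 ± 0.13 for sow 1406 (limma adjusted p = 0.757).

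**Figure D3:**
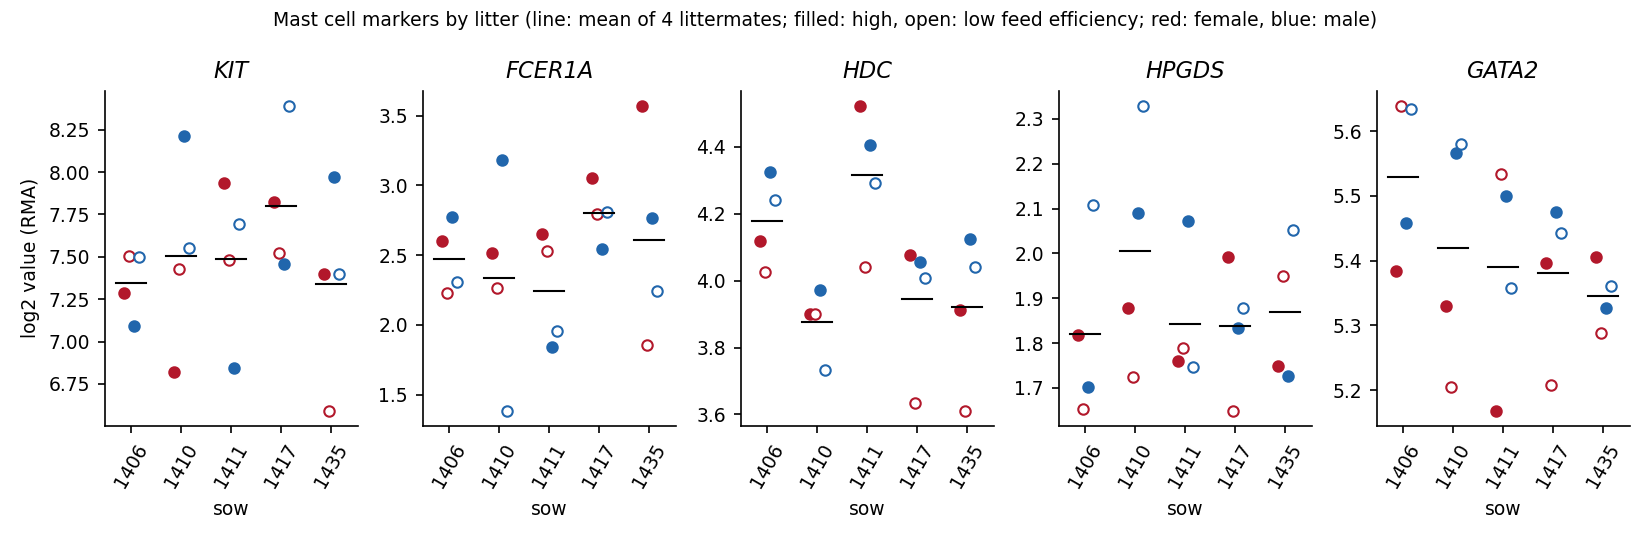
Log2 values of the 5 marker genes in the 4 littermates of each sow, with the litter mean as a line (filled, high; open, low feed efficiency; red, females; blue, males). The litters of sows 1411 and 1406 stand highest for HDC, at means of 4.32 and 4.18, and the litters overlap for the other genes.

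The third question was whether the markers varied together from pig to pig, as transcripts of a single cell type can when the number of those cells varies. Of the 10 pairs of genes, 6 had a Pearson r above 0, and the median r was 0.067 pooled over the 20 pigs and 0.131 after each value was centred on its litter, beside 0.015 and 0.005 over all pairs of named genes. None of the 10 correlations passed adjustment, pooled or centred.

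The highest value was that of HPGDS and GATA2. Their r was 0.448 (permutation p = 0.0474, adjusted p = 0.259) and rho was 0.395 (permutation p = 0.0851, adjusted p = 0.508), and without the 2 pigs farthest from the median r was 0.233. Centred on the litter, r was 0.579 (within-litter permutation p = 0.0339, adjusted p = 0.339) and positive in 4 of 5 litters. HPGDS lay between 1.65 and 2.33, close to the filter bound, in all pigs.

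The receptor genes FCER1A and KIT came next. Their r was 0.410 (permutation p = 0.0723, adjusted p = 0.259) and rho was 0.377 (permutation p = 0.102, adjusted p = 0.508), and r was 0.630 without the 2 pigs farthest from the median. Centred on the litter, r was 0.398 (adjusted p = 0.402). Among the 10566 other named genes, KIT held rank 512 by centred r with FCER1A, and 95% of pairs of named genes had a centred r under 0.496.

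HDC gave higher values with both receptors after centring than before. With KIT its r was 0.169 pooled (permutation p = 0.476, adjusted p = 0.912, rho 0.128, permutation p = 0.589, adjusted p = 0.937) and 0.379 centred, and -0.013 without the 2 farthest pigs. With FCER1A it was 0.054 pooled (permutation p = 0.821, adjusted p = 0.912, rho 0.024, permutation p = 0.922, adjusted p = 0.937) and 0.336 centred, and -0.051 without the 2 farthest pigs. In both cases the 2 pigs left out were those farthest from the median of the receptor gene, not of HDC. FCER1A, KIT and HDC were thus positive with each other in all 3 pairs, pooled and centred. Each pair was positive in 4 of 5 litters, but not past the test.

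FCER1A and HPGDS gave the lowest value, with r at -0.405 (permutation p = 0.0777, adjusted p = 0.259), rho at -0.241 (permutation p = 0.306, adjusted p = 0.937) and a centred r of -0.414. This rested on few pigs, since r was -0.071 without the 2 farthest. FCER1A and GATA2 had an r of -0.139 (permutation p = 0.558, adjusted p = 0.912), a rho of -0.111 (permutation p = 0.638, adjusted p = 0.937), a centred r of -0.115 and an r of 0.008 without the 2 farthest pigs. By contrast, the KIT probesets followed each other, with r values of 0.680, 0.763 and 0.822 (adjusted p = 0.00129, 0.00014 and 0.00014 by permutation over 4 pairs of probesets) and rho values of 0.672, 0.747 and 0.780 (adjusted p = 0.00207, 0.00058 and 0.00052). Without the 2 farthest pigs these r values were 0.660, 0.765 and 0.715. The variation of KIT between pigs was thus shared by its probesets.

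**Figure D4:**
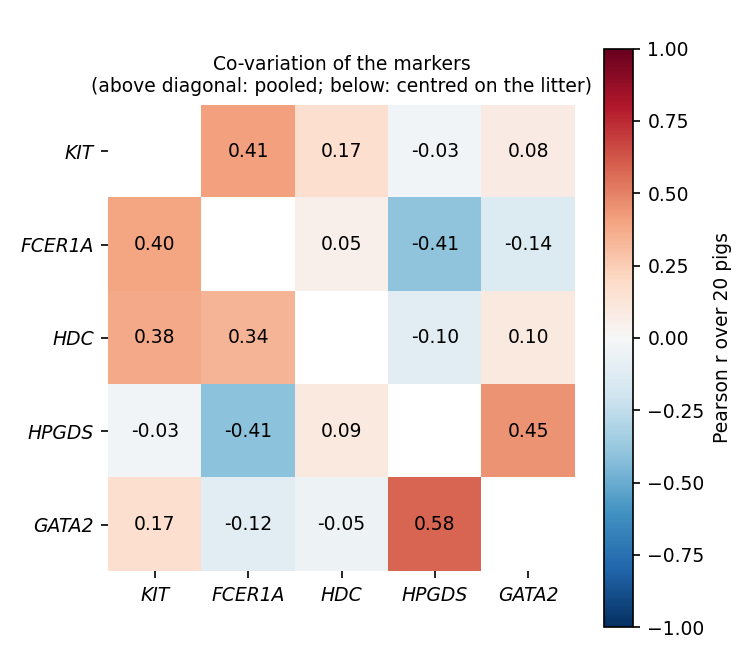
Pearson r between the 5 marker genes over 20 pigs, pooled above the diagonal and centred on the litter below it. HPGDS and GATA2 are highest at 0.45 and 0.58, FCER1A, KIT and HDC are positive with each other, and FCER1A and HPGDS are at -0.41 both ways.

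For each marker the named genes with the most similar pattern were read by centred r over the 20 pigs, a listing chosen after values were seen and given as a description. For FCER1A these were ADORA3, an adenosine receptor, at 0.824, ANGPTL7, a secreted angiopoietin-like protein, at 0.787 and KCTD12 at 0.782. For KIT they were TTLL7, a tubulin-modifying enzyme, at 0.815, the replication origin protein ORC6 at 0.793 and the cytoskeletal protein EPB41L2 at 0.786. For HDC they were the Notch ligand DLL1 at 0.862, SLAMF8, a surface protein of myeloid cells, at 0.788 and ZNF362 at 0.755. For HPGDS they were NENF at 0.844, MRAP at 0.797 and the steroid dehydrogenase HSD17B2 at 0.788, and for GATA2 MIR18B at 0.807, LOC100511185 at 0.785 and the lysosomal enzyme HGSNAT at 0.771. Over all named genes the median of the highest centred r was 0.839, so such values arise for most genes on these arrays.

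The markers were then set against the mean levels of 17 lists of genes of other cell types and of tissue handling, 85 relations in all. HDC and the plasma cell list had a Pearson r of 0.760 (permutation p = 7e-05, adjusted p = 0.00595) and a rank correlation (Spearman rho) of 0.791 (permutation p = 9e-05, adjusted p = 0.00765), and r was 0.715 without the 2 farthest pigs. This relation passed when pooled, for the brighter HDC probeset, and the dimmer one was not set against the lists. Litter accounted for 61.3% of the variance of the plasma cell list, and the list was highest in the litters of sows 1411 and 1406, at 0.22 and 0.15, which were also the highest for HDC. Centred on the litter, r was 0.490 (within-litter permutation p = 0.0205, adjusted p = 0.397) and positive in 5 of 5 litters, so that within litters it did not pass. The list holds 5 measured genes of antibody-secreting cells, none of which is a marker here, and whether HDC read those cells was not tested. Among the other users of the markers named above, pooled r was 0.028 for HDC with enteroendocrine cells and 0.004 for GATA2 with endothelium. HPGDS was at -0.190 with tuft cells and at -0.241 with macrophages and dendritic cells. HDC and the endothelium list had an r of 0.628 (permutation p = 0.00319, adjusted p = 0.0678) and a rho of 0.389 (permutation p = 0.0907, adjusted p = 0.513). None of these passed.

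FCER1A and the macrophage and dendritic cell list had an r of 0.649 (permutation p = 0.00211, adjusted p = 0.0598) and a rho of 0.696 (permutation p = 0.00095, adjusted p = 0.0404), and r was 0.693 without the 2 farthest pigs. Centred on the litter, r was 0.584 (within-litter permutation p = 0.0153, adjusted p = 0.397) and positive in 5 of 5 litters. The pooled rank correlation passed, by a permutation that does not allow for littermates, and the pooled Pearson correlation did not. FCER1A and the list both had higher means in high feed efficiency, the list at 0.11 against -0.11. Pooled and centred values alike leave that group difference in. HDC and the same list had an r of 0.220 (permutation p = 0.350, adjusted p = 0.742), a rho of 0.152 (permutation p = 0.518, adjusted p = 0.889) and an r of -0.083 without the 2 farthest pigs. Only after centring was their r high, at 0.629 (within-litter permutation p = 0.0234, adjusted p = 0.397), and it did not pass.

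KIT was closest to the fibroblast list. Their r was 0.663 (permutation p = 0.00118, adjusted p = 0.0501), rho was 0.609 (permutation p = 0.00512, adjusted p = 0.0870) and r without the 2 farthest pigs was 0.576. Centred on the litter, r was 0.692 (within-litter permutation p = 0.00653, adjusted p = 0.397), and it was positive in 4 of 5 litters. None of these values passed. The interstitial cells of Cajal, the other main user of KIT in the gut wall, were represented by 2 of 6 listed genes. These were ANO1, a chloride channel used as their marker, and the gap junction gene GJA1. ANO1, at a mean of 3.19, was removed by the filter on the SD and was not tested for feed efficiency. The r of KIT with ANO1 was -0.317 (permutation p = 0.172, adjusted p = 0.446, rho -0.354, permutation p = 0.124, adjusted p = 0.672) and -0.312 without the 2 farthest pigs. With GJA1 it was 0.346 (permutation p = 0.135, adjusted p = 0.446, rho 0.328, permutation p = 0.158, adjusted p = 0.672) and 0.220 without the 2 farthest pigs. These relations were 2 of 12 between markers and chosen partner genes, none of which passed. The samples were scraped mucosa, and whether KIT read interstitial cells of Cajal was not tested.

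**Figure D5:**
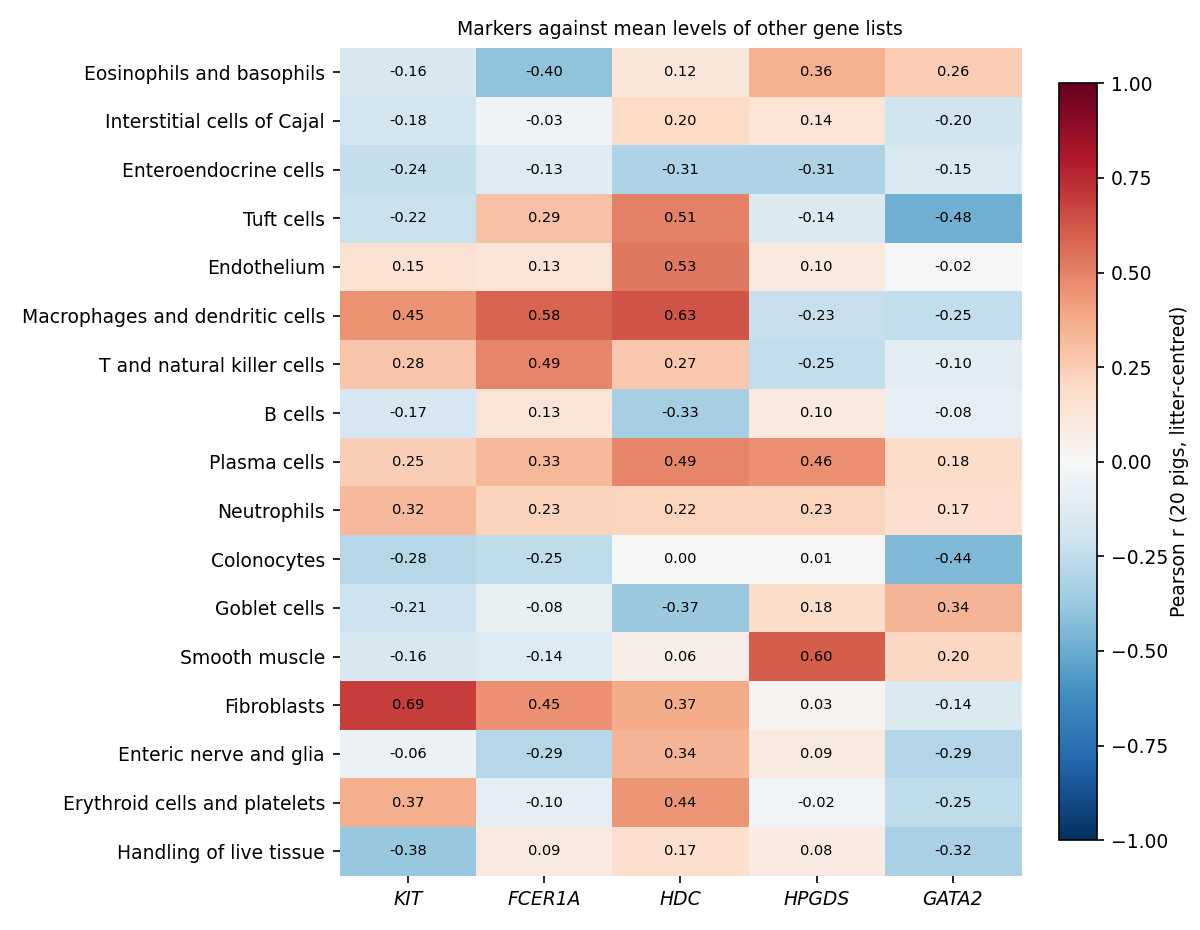
Pearson r, centred on the litter, between the 5 marker genes (columns) and the mean level of 17 gene lists of other cell types and of tissue handling (rows) over 20 pigs. KIT is highest with fibroblasts at 0.69, FCER1A and HDC with macrophages and dendritic cells at 0.58 and 0.63, and HPGDS with smooth muscle at 0.60, but no centred value passed adjustment, and pooled r was 0.220 for HDC with macrophages and dendritic cells and 0.278 for HPGDS with smooth muscle.

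Among the other partner genes, the stem cell factor gene KITLG, whose product KIT binds, had an r of 0.070 with KIT (permutation p = 0.772, adjusted p = 0.805, rho 0.200, permutation p = 0.397, adjusted p = 0.672) and 0.288 without the 2 farthest pigs. IL1RL1, the interleukin 33 receptor of mast cells and other immune cells, had an r of -0.498 with KIT (permutation p = 0.0259, adjusted p = 0.311, rho -0.301, permutation p = 0.198, adjusted p = 0.672) and -0.414 without the 2 farthest. FCER1A and FCER1G, the shared gamma chain of its receptor, were at 0.242 (permutation p = 0.304, adjusted p = 0.521, rho 0.212, permutation p = 0.369, adjusted p = 0.672) and at 0.240 without the 2 farthest pigs. HDC and SLC18A2, the transporter that loads histamine into granules, were at 0.290 (permutation p = 0.215, adjusted p = 0.446, rho 0.269, permutation p = 0.251, adjusted p = 0.672) and at 0.373 without the 2 farthest pigs. None of these pairs of genes that act together in mast cells passed.

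The wider equipment of mast cells was read from 6 pathway lists, most of whose genes are used by other cells as well, and no gene of any list passed for feed efficiency, sex or litter. Of the signalling chain below the Fc receptor, 11 of 16 genes were measured and 10 were tested for feed efficiency, all 10 above 0, with log2 differences from 0.06 to 0.19 and a median of 0.11. The kinase FES (0.19 ± 0.08 SE, unadjusted p = 0.0272) and the phospholipase PLCG1 (0.17 ± 0.07 SE, unadjusted p = 0.0368) had the smallest p, each at a limma adjusted p of 0.980. FCER1G, the gamma chain, differed by 0.12 ± 0.13 (SE). Those genes serve T cells, B cells and macrophages too, and among markers of T and natural killer cells 9 of 10 genes were above 0, with a median of 0.11. Their part in the count was not tested.

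Some genes of the same signalling list varied by litter without passing. The kinase SYK ran from 6.01 ± 0.29 in the litter of sow 1406 to 7.21 ± 0.34 in that of sow 1411 (F = 10.04, unadjusted p = 0.000284, limma adjusted p = 0.0825). The inositol phosphatase INPP5D, a brake on the same chain, had its lowest mean, 7.02 ± 0.28, and its highest, 7.95 ± 0.18, in the same litters, with a limma adjusted p of 0.130. The adaptor LAT2 had its lowest mean, 6.07, and its highest, 6.69, in the same litters (limma adjusted p = 0.236). Of 11 genes, 3 had an unadjusted p under 0.05 for litter, beside 16.1% of all probesets. The B cell list, 5 measured genes of which MS4A1 was called for litter (limma adjusted p = 0.0397), had litter levels of -0.73 (sow 1406), -0.42 (1410), 0.08 (1417), 0.35 (1435) and 0.71 (1411), the same order as SYK. Litter accounted for 80.0% of the variance of that list, B cells use the same signalling genes, and their part in the SYK order was not tested. FCER1A did not share this order, since it was lowest in the litter of sow 1411, and its r with SYK was 0.059 (permutation p = 0.805, adjusted p = 0.805, rho -0.068, permutation p = 0.777, adjusted p = 0.926) and -0.091 without the 2 farthest pigs.

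In the list of growth factors, chemotaxis and survival, 6 of 11 tested genes were above 0, with a median log2 difference of 0.07. The chemokine CXCL12 (0.22 ± 0.11 SE, unadjusted p = 0.0670) and the receptor chain IL1RAP (0.24 ± 0.14 SE, unadjusted p = 0.0984) had the smallest p, and KITLG differed by 0.51 ± 0.34 (SE, unadjusted p = 0.152), a large value with a wide error. For litter, CSF2RB, the shared beta chain of cytokine receptors, ran from 7.07 ± 0.33 in the litter of sow 1410 to 7.86 ± 0.34 in that of sow 1435 (limma adjusted p = 0.277), and IL1RL1 had an adjusted p of 0.504.

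Of the granule list, 7 of 10 tested genes were above 0, with a median of 0.05. GZMB, a granzyme better known from cytotoxic lymphocytes, had the smallest p (0.33 ± 0.12 SE, unadjusted p = 0.0109, limma adjusted p = 0.980), and the tetraspanin CD63, which moves to the surface when granules are released, differed by 0.12 ± 0.07 (SE). SRGN, the proteoglycan core of the granule, differed by 0.09 ± 0.22 (SE). For litter the lysosomal genes CTSD and LAMP2 had the smallest p, with limma adjusted p-values of 0.312 and 0.326.

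Of the histamine list 4 of 11 genes were measured. SLC18A2 differed by -0.05 ± 0.10 (SE) and the histamine receptors HRH1 by -0.14 ± 0.09 (SE) and HRH3 by 0.06 ± 0.09 (SE), all at limma adjusted p-values of 0.980 to 0.987, beside the 0.19 of HDC. For litter SLC18A2 and HRH1 had adjusted p-values of 0.443 and 0.529.

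Of the genes for eicosanoids, the lipid mediators that include prostaglandin D2, 4 of 7 tested were above 0 with a median of 0.04. The cyclooxygenase PTGS1, which supplies the substrate of HPGDS, differed by 0.27 ± 0.14 (SE, unadjusted p = 0.0766) and ALOX5AP, a leukotriene synthesis protein, by 0.15 ± 0.12 (SE). HPGD, which degrades prostaglandins, ran from 7.23 ± 0.13 in the litter of sow 1406 to 8.72 ± 0.33 in that of sow 1435 (limma adjusted p = 0.236), and ALOX5AP had an adjusted p of 0.452 for litter. The r of HPGDS with PTGS1 was -0.132 (permutation p = 0.576, adjusted p = 0.737, rho 0.003, permutation p = 0.993, adjusted p = 0.993) and 0.129 without the 2 farthest pigs.

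Of the transcription factors and other mast cell genes, 4 of 9 were above 0 and the median log2 difference was 0.00. STAT5B, which carries cytokine signals to the nucleus, differed by 0.15 ± 0.07 (SE, unadjusted p = 0.0436, limma adjusted p = 0.980) and the complement receptor C3AR1 by 0.32 ± 0.23 (SE). MITF, the factor that acts with GATA2 in mast cells, differed by -0.09 ± 0.11 (SE), and for litter CEBPA and TAL1 had the smallest p, with limma adjusted p-values of 0.341 and 0.348.

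The markers were last set against the leading principal component of the arrays, which held 17.2% of the variance, and the number that identifies each pig. The sign of the component is arbitrary and was set so that it rises with the pig number. All pigs of sows 1417 and 1435 had higher numbers than those of the other litters. HDC had an r of -0.542 with the component (permutation p = 0.0135, adjusted p = 0.135 over 10 relations, rho -0.418, permutation p = 0.0674, adjusted p = 0.371), -0.512 without the 2 farthest pigs and -0.329 centred on the litter. With the pig number it had an r of -0.451 (permutation p = 0.0457, adjusted p = 0.229, rho -0.307, permutation p = 0.188, adjusted p = 0.406), -0.342 without the 2 farthest pigs and -0.272 centred on the litter. The other 4 genes had r values between -0.294 and 0.342, and none of the 10 relations passed. The sources used here do not say what the component stands for, and its part in the litter order of HDC was not tested.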

How the data were processed

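RNA of caecal mucosa was hybridised to the Affymetrix porcine snowball array, 1 array per pig. The log2 values that the authors deposited had been background corrected, quantile normalised between arrays and summarised per probeset by the robust multichip average, with a custom layout on Sscrofa11.1, so differences shared by all transcripts of an array are removed. The submitters' processing notes name GCOS 1.1.1. All columns were matched to a pig (0 unmatched). Gene names came from the platform's annotation table, with 331 symbols updated through the RefSeq table of Sscrofa11.1, which left 16361 with 1 symbol and 8731 with none, and gene positions came from that table. A further 2 probesets of the markers, 1 of KIT and 1 of GATA2, carried no values.

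Following the study, a filter on low means (5% quantile, 1.62) left 23837 probesets. A further filter on the SD (above its 95% quantile in each group), used for feed efficiency and the interaction, left 23140. All 5 markers passed both filters. Models were fitted with limma 3.58.1 in R 4.3.3 with sow as a fixed factor, tests were two-sided, and an adjusted p (Benjamini-Hochberg over all probesets tested) under 0.05 was called. The models for sex and for litter (moderated F test) held sow, sex and feed efficiency together. Slaughter batch, which the study's model held, is not in the labels and was not analysed here. The pigs are separate animals. The fits were tested on simulated data before use.

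Correlations were computed with numpy 2.4.6, with ranks from scipy 1.17.1, and figures were drawn with matplotlib 3.10.9. Permutation p-values came from 100000 resamples over all pigs, or within litters for centred values, with Benjamini-Hochberg adjustment within each family of relations. Values were centred by subtracting the mean of the litter, which leaves differences between the efficiency groups in. The 2 farthest pigs of a relation were those farthest from the median of a single side. That side was the marker against lists, partner genes, the principal component and the pig number, and the brighter probeset within a gene. Between markers it was the first in the order FCER1A, KIT, HDC, HPGDS and GATA2. Alternatives covered the filters, array weights, a trended and robust prior, 2 other scalings, the pair of 1 litter and sex as a block, other probesets, and leaving out each pig and each litter. The markers and gene lists were chosen with earlier results of these data known. All markers were named, and of each pathway list the 2 genes with the smallest p for feed efficiency and for litter. KITLG, FCER1G, SRGN, MITF, LAT2 and the genes nearest to each marker were added after values were seen. All pairs of markers and partner genes were likewise chosen by known role after the markers' values were seen. The neighbours of CPA3 and MS4A2, planned at the outset, were not analysed here.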

Additional observations from a re-analysis of the deposited data

Results flagged for a closer look

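In groups of 4 littermates or of 10 pigs, a sample was looked at again where its gap to the nearest of the others was large for the range of the group (Dixon's test). This held for 2 of 45 groups, and chance alone picks about 5% of groups. HDC in the low-efficiency female of sow 1417 was at 3.63, and the nearest littermate was at 4.01. HPGDS in the high-efficiency male of sow 1411 was at 2.07, and the nearest littermate was at 1.79, both close to the filter bound.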

How the results depend on the processing

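No marker was called for feed efficiency in any of 37 alternatives (smallest adjusted p 0.584), for litter in any of 33 (0.137) or for sex in any of 33 (0.783). In the alternative that removed probesets under the median mean, FCER1A, HDC and HPGDS were not tested, so it could not call them. FCER1A kept its sign in all 35 alternatives, and without single pigs or litters its log2 difference ranged from 0.36 to 0.64. HDC ranged from 0.16 to 0.22 in the same way, and its other probeset was at -0.0538. The signs of the 3 differences near 0 were not stable. KIT ranged from -0.131 to 0.0742 without single pigs, was at 0.0505, 0.0223 and 0.0508 without the litters of sows 1406, 1411 and 1417 and at -0.200 without that of sow 1435, and at 0.0101 and 0.0436 with its other probesets. HPGDS ranged from -0.0675 to 0.0189 without single pigs, was at 0.001004 with array weights and at 0.0337 without the litter of sow 1435. GATA2 ranged from -0.0567 to 0.00584 without single pigs and was at 0.0238 without the litter of sow 1406. The median pairwise r of the markers, 0.0672 over all pigs with a jackknife SE of 0.130, ranged from -0.0349 (without the low-efficiency female of sow 1435) to 0.107 without single pigs, and from -0.0021 (without the litter of sow 1435) to 0.262 (without that of sow 1411) without single litters. The cause of these shifts was not tested. The spread between 10 pigs per group limits what could be seen. FCER1A and HPGDS were dim, at the 10.9th and 4.8th percentile of named genes. Their differences can be understated, and how much of their signal came from the transcripts was not tested.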
